A study of Mus musculus with 8 samples.

Results

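The 4 Hox clusters of the mouse genome were examined in a chromatin immunoprecipitation sequencing (ChIP-seq) experiment on the DNA-binding enzyme TET1. All peaks that overlapped the mm9 windows of the clusters by at least 1 bp were taken, which gave 752 of the 446708 peaks in the 6 deposited peak lists. The windows were chr6:52100000-52220000 for Hoxa, chr11:96040000-96235000 for Hoxb, chr15:102745000-102875000 for Hoxc and chr2:74490000-74610000 for Hoxd. They hold 38 genes: 10 in Hoxa (Hoxa2 to Hoxa13), 10 in Hoxb (Hoxb1 to Hoxb13), 9 in Hoxc (Hoxc4 to Hoxc13) and 9 in Hoxd (Hoxd1 to Hoxd13). No mm9 gene annotation was used, so peaks are placed by their distance from the low-coordinate end of a window and are not assigned to single genes. By the RefSeq gene order, that end is the Hoxa2 side of Hoxa and the Hoxb13, Hoxc13 and Hoxd13 sides of the other clusters.

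All libraries came from mouse embryonic stem cells whose endogenous Tet1 gene carries an HA tag, the mock-treated controls included. The design text names the line as E14TG2a, while the strain label reads C57BL/6N. Permeabilised cells were incubated for 20 min at room temperature with RNase H1 at 0.2 U/ul, which cuts RNA in RNA:DNA hybrids, together with Nuclease S1 at 0.05 U/ul, which cuts single-stranded nucleic acid, or were mock treated. The treatment label names only the first enzyme, so the shares of the 2 enzymes cannot be told apart. Cells were then crosslinked with 2 mM disuccinimidyl glutarate for 45 min and 0.7% formaldehyde for 15 min, and HA-bound fragments of about 250 bp were sequenced in pairs of 42 cycles. Each group had 3 ChIP libraries, and 1 pooled input library per group served as its control. The labels do not tell whether replicates are separate cultures. The p-values then describe the spread of these libraries alone, and that spread may be technical.

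Hox genes encode homeodomain transcription factors that pattern the body axis, and their order along a cluster follows the order of their expression from head to tail. In embryonic stem cells the clusters are largely silent, are rich in unmethylated CpG dinucleotides and are known as large domains of Polycomb repression. TET1 oxidises methylated cytosine, and its CXXC domain binds CpG-rich DNA. Members act at different levels of the body. Hoxb1 patterns the hindbrain, Hoxa3 the thymus and thyroid, and Hoxa5 the lung. Hoxb4 acts in blood stem cells and Hoxa9 in blood progenitors. Hoxa11 patterns the forearm and uterus, Hoxd10 the lumbar spinal cord, and Hoxa13 and Hoxd13 the digits and genital tubercle, while Hoxc13 acts in hair and nail.

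The promoters are shown for their CpG content, the sequence feature that a CXXC domain recognises. RefSeq promoters of GRCm38.p6 matched 22 of the 38 genes, at 24 start sites, and the 250 bases upstream of each start were used. The motif searched was CG, which is the same on both strands. Matched were 10 promoters in Hoxa, 3 in Hoxb, 1 in Hoxc and 10 in Hoxd. The promoter with most CpG among those matched in each cluster is printed 5′ to 3′, with every CG in capitals. Hoxa13 lies at chr6:52260881-52261130 on the minus strand, Hoxb4 at chr11:96318017-96318266, Hoxc4 at chr15:103034145-103034394 and Hoxd13 at chr2:74667975-74668224, the last 3 on the plus strand. Not matched were Hoxa4, Hoxb2, Hoxb3, Hoxb5, Hoxb6, Hoxb7, Hoxb9, Hoxb13, Hoxc5, Hoxc6, Hoxc8, Hoxc9, Hoxc10, Hoxc11, Hoxc12 and Hoxc13.
Hoxa13: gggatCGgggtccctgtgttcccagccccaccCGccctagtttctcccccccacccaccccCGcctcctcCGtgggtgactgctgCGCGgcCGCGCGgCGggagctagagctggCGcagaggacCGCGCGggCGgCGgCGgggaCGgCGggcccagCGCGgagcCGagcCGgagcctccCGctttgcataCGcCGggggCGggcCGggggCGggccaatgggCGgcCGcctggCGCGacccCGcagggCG
Hoxb4: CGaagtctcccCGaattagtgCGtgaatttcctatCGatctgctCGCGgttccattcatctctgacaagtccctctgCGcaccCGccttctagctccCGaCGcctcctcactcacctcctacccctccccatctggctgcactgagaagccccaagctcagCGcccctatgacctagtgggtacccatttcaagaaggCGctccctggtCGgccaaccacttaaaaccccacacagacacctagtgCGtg
Hoxc4: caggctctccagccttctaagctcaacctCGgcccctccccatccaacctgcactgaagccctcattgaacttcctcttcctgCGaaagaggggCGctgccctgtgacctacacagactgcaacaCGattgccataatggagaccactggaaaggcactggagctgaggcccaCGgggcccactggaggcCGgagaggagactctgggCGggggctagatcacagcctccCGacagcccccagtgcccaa
Hoxd13: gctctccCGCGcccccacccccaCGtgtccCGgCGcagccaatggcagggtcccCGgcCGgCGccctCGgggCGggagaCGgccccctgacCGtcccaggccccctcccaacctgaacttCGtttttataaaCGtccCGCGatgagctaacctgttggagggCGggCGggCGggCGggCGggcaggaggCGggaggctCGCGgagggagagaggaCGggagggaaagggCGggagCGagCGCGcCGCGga
The 4 stretches hold 35, 14, 8 and 31 CG. Over the 24 Hox promoters the median was 12.5 CG, and it was 6 over all 32851 promoters of the table. Hox promoters with 20 or more CG numbered 8 (33.3%), where 17.9% of all promoters had as many, and 100% of the Hox promoters had at least 1 CG against 92.1% of all. The counts ranged within the clusters, since Hoxa5, the lung gene, had 28 CG, Hoxd1 had 24, and Hoxa9 and Hoxd4 had 3 each. Hoxd11 had 2 CG at its first listed start and 20 at the other. These letters describe the genome and not a binding site, and the GRCm38.p6 positions were not placed on the mm9 peaks.

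The Hox windows held dense TET1 signal in mock-treated cells and less of it after the nucleases. In the mock lists, 103587, 103146 and 99254 bp of the windows lay under peaks, and in the nuclease-treated lists 72479, 67650 and 82576 bp. Every nuclease-treated library lay below every mock library. On average 101996 ± 2385 bp were covered in mock cells and 74235 ± 7616 bp after the nucleases (SD, n = 3 each), a change of -27.2% (exact two-sided permutation test, p = 0.1, adjusted p = 0.116). With 3 libraries against 3 the exact permutation test has 20 label orders and can give no p under 0.1, so no measure per library can pass a threshold of 0.05. The 10 measures taken in each cluster and in their sum made a family of 50, over which p-values were adjusted by the Benjamini-Hochberg method, and the groups did not overlap in 43 of them. Those 43 include the local background of the summits, which was higher after the nucleases in each cluster and in the sum. The measures share the same peaks, and the sum holds the clusters, so the 43 are not independent. The libraries of a group also share its pooled input as control.

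Hox peaks were fewer, narrower and lower in the nuclease-treated libraries. The mock lists held 134, 139 and 127 Hox peaks and the nuclease-treated lists 123, 110 and 119, a mean of 133 ± 6.03 against 117 ± 6.66. The width of the median Hox peak was 640 ± 7.75 bp against 536 ± 46.0 bp in the same order of groups, and the groups did not overlap. Summit coverage, the number of fragments over the highest point of a peak, is given here as a multiple of the library's genome-wide background of about 2 fragments. Its median over Hox peaks was 12.9, 12.5 and 12.2 times background in mock and 9.98, 10.1 and 9.83 times in nuclease-treated libraries. Hox peaks of 20 times background or more numbered 15, 16 and 16 in mock, and 1, 0 and 0 after the nucleases. Hox peaks of 10 times or more numbered 86.7 ± 4.51 and 54.7 ± 5.51, a change of -36.9%, and those of the whole lists changed by -35.9%. A median Hox summit held 29, 28 and 26 fragments in mock and 21, 20 and 22 in nuclease-treated libraries, and a single count of 29 has an exact 95% Poisson interval of 19.4 to 41.6, so 1 summit alone is read with wide counting error.

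The local background against which each summit was scored was higher after the nucleases. Its median over Hox peaks was 1.3 ± 0.00495 times the genome-wide background in mock and 1.70 ± 0.0147 times in nuclease-treated libraries, and the groups did not overlap. Over all peaks of the lists it was 1.15 ± 0.0121 and 1.43 ± 0.0165. All libraries of a group had the same pooled input as control. The SD and the lack of overlap therefore do not show how far separate inputs would vary. The peak calls and the fold enrichment rest on the same shared input. The part of the local background in the lower peak measures was not tested. The fold enrichment at the summit, as the authors' lists give it, had a median of 6.88 ± 0.243 in mock and 4.67 ± 0.00928 in nuclease-treated libraries.

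**Figure D1:**
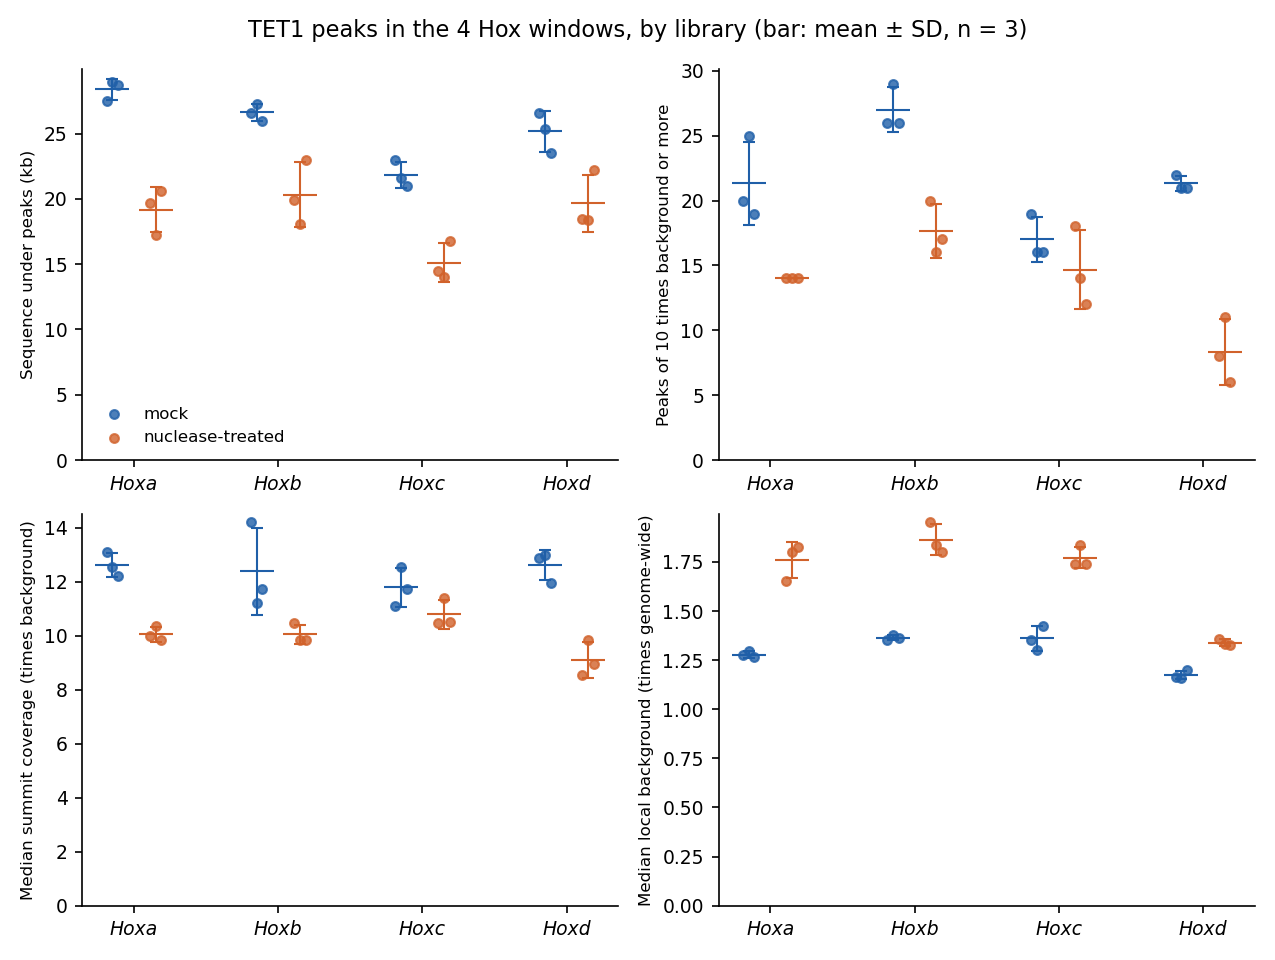
Sequence under peaks (kb), peaks of 10 times background or more, median summit coverage and median local background (both as multiples of the genome-wide background) in each Hox cluster. Points are libraries and bars are mean ± SD (n = 3 per group). Nuclease-treated points lie below mock points for sequence under peaks in all 4 clusters, and above them for local background. The libraries of a group share the same pooled input as control, so their local backgrounds are not independent.

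All 4 clusters had less sequence under peaks in every nuclease-treated library. Hoxa went from 27461, 28933 and 28747 bp in mock to 19646, 17246 and 20595 bp, a change of the mean of -32.5%. Hoxb had 26578, 27263 and 25993 bp against 19912, 18036 and 22998 bp, a change of -23.7%. These 2 clusters held like amounts in mock although the Hoxb window is 195 kb and the Hoxa window 120 kb, so Hoxa was the more densely covered. Hoxc had 22953, 21577 and 21004 bp against 14458, 14020 and 16798 bp, a change of -30.9%. Hoxd had 26595, 25373 and 23510 bp against 18463, 18348 and 22185 bp, a change of -21.8%. Nuclease-treated library 3 was the nearest to mock in each of the 4 clusters. The genome-wide background was 2.105, 1.929 and 2.239 fragments in nuclease-treated libraries 1 to 3. In mock libraries 1 to 3 it was 2.253, 2.232 and 2.131 fragments. Covered bases were not adjusted for it, and its part in them was not tested. For each cluster the exact permutation p was 0.1 and the adjusted p 0.116.

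The measures in which the groups overlapped differed from cluster to cluster. In Hoxd the number of peaks overlapped between the groups (31, 33 and 28 in mock, 31, 27 and 29 after the nucleases), but peaks of 10 times background or more numbered 22, 21 and 21 against 8, 11 and 6. The Hoxd median summit was 12.6 ± 0.561 times background in mock and 9.11 ± 0.667 times after the nucleases. In Hoxc the groups overlapped in median summit coverage (11.8 ± 0.726 and 10.8 ± 0.538 times, p = 0.2 by exact permutation). They also overlapped in peaks of 10 times or more (19, 16 and 16 against 18, 14 and 12). The Hoxc median width overlapped too, at 558 ± 157 and 603 ± 85.1 bp, with the higher mean after the nucleases. The highest Hoxc summit of each library was nonetheless 28.0, 27.8 and 39.4 times background in mock and 18.1, 17.1 and 17.9 times after the nucleases. Hoxa peaks were 730 ± 19.5 and 529 ± 34.7 bp wide at the median, whereas the Hoxb widths overlapped (544 ± 25.3 and 523 ± 47.6 bp). The number of Hoxa peaks overlapped between the groups (32, 37 and 31 in mock, 32, 27 and 30 after the nucleases). So did the width of the widest Hoxa peak (exact permutation p = 0.3 for each of these 2 measures). Peaks of 20 times background or more were at 0 in all nuclease-treated libraries in Hoxa, Hoxc and Hoxd, from means of 4.33, 5 and 1.33 in mock, and Hoxb had 1 such peak in 1 nuclease-treated library and 5 in each mock library.

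No pair of clusters was shown to differ in its change. The log2 ratio of covered bases of 2 clusters was compared between the groups for all 6 pairs, with adjustment over the 6. The difference in this log2 ratio, nuclease-treated minus mock, was -0.17 for Hoxa over Hoxb and -0.18 for Hoxc over Hoxd and 0.14 for Hoxb over Hoxc, each with p = 0.1 by exact permutation and adjusted p = 0.2. It was -0.21 for Hoxa over Hoxd, -0.037 for Hoxb over Hoxd and -0.033 for Hoxa over Hoxc, with adjusted p of 0.3, 0.72 and 0.9 by the same exact test. For median summit coverage, a measure added after seeing the data, the widest gap was Hoxc over Hoxd. Its log2 ratio was -0.21, -0.051 and -0.029 in mock and 0.29, 0.21 and 0.23 after the nucleases, so the groups did not overlap (exact permutation p = 0.1, adjusted p = 0.2). Such p-values do not show that the clusters acted alike.

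The change in the Hox windows was set against their neighbourhood and the rest of each list. The flanks were a window of each cluster's own length on either side of it, 1130008 bp in all. In them, 2.72% ± 0.225 of bases lay under peaks in mock and 2.03% ± 0.0582 after the nucleases, a change of -25.3%. The log2 ratio of covered bases, Hox windows to flanks, was 1.73 ± 0.0886 in mock and 1.69 ± 0.108 after the nucleases. As the flanks were longer in total than the Hox windows, this ratio is not one of density. Its difference between the groups, -0.045, did not pass the test (exact permutation p = 0.6). The sign of that difference turned when the peak threshold, the local background limit or the window ends were changed, and also without mock library 3 (0.0064) and without nuclease-treated library 2 (0.0077). Over the genome the covered bases changed by -21.5%. Hox peaks held 0.207%, 0.202% and 0.214% of all covered bases in mock and 0.186%, 0.196% and 0.195% after the nucleases, and the groups did not overlap (0.208 ± 0.00568 against 0.192 ± 0.00542, exact permutation p = 0.1). As a share of the number of peaks, Hox was 0.167% ± 0.00631 and 0.17% ± 0.0091, with overlapping groups. Peaks of 20 times background or more had means of 6382 in mock and 1469 after the nucleases over the whole lists, a ratio of 0.23. In the Hox windows the ratio was 0.0213, from a mock mean of 15.7 peaks. At 10 times background or more the ratios were nearly equal, 0.631 in the Hox windows and 0.641 over the whole lists. At 30 times or more the Hox windows held 0, 1 and 1 peaks in mock and 0 in each nuclease-treated library, groups that overlapped (exact permutation p = 0.4).

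Merging the peaks of the 6 lists gave 150 Hox regions among 137027 regions of the genome. A peak was present in all 6 lists at 78 of them (52%), where 21.6% of all regions had one. By cluster these were 19 of 35 in Hoxa, 25 of 46 in Hoxb, 12 of 34 in Hoxc and 22 of 35 in Hoxd. Of 109 Hox regions with a peak in all 3 mock lists, 3 had none in any nuclease-treated list, where the share over the genome was 6.67%. Of 80 with a peak in all 3 nuclease-treated lists, 0 had none in any mock list (genome 1.68%). The 3 mock-only regions were weak and narrow. They lay at chr6:52199236-52199599 in Hoxa (7.55, 10.3 and 7.98 times background), at chr2:74499729-74500059 in Hoxd (4.88, 6.72 and 6.1 times) and at chr2:74563274-74563712 in Hoxd (7.1, 7.17 and 8.45 times).

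Summit coverage of the regions present in all 6 lists was compared with limma over all 29613 such regions, with Benjamini-Hochberg adjustment over all of them. Of the 78 Hox regions, 42 (53.8%) were lower after the nucleases at an adjusted p under 0.05, and 36.0% of all regions were. By limma 0 of the 78 were higher, where 0.206% of all regions were, and 1 was higher at an unadjusted p under 0.05. Without 1 library in turn, 31 to 41 of 80 to 89 Hox regions were lower (37.8% to 51.25%), where 27.3% to 32.7% of all regions were. In those fits 0 or 1 Hox region was higher, the 1 being without mock library 3. Over all regions 0.13% to 0.46% were higher. The Hox median log2 difference was -0.50 and that of all regions -0.35, and 75 of the 78 values were negative. Counted without a model, the coverage of the groups did not overlap at 49 Hox regions, all lower, where 44.7% of all regions were lower in this way and 1.39% higher. Regions lower by limma numbered 10 of 19 in Hoxa, 13 of 25 in Hoxb, 6 of 12 in Hoxc and 13 of 22 in Hoxd.

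Over all peaks of a list, the median summit coverage was 8.17 ± 0.245 times background in mock and 7.99 ± 0.359 times after the nucleases, and the groups overlapped (exact permutation p = 0.6). The shift of -0.35 holds for the regions with a peak in all 6 lists, and the fit was therefore repeated after each library was centred on its own median region. Relative to that shift, 2 Hox regions were lower, where 4.63% of all regions were, and 1 was higher, where 1.67% were. Those 3 regions are named in the account of their clusters, and none of the other named regions passed after centring. When only peaks with a local background of at most 2 times were kept, 17 of 48 Hox regions were lower (35.4%), beside 23.5% of all regions. The difference was also read within ranges of strength, since the median over all regions varied with it. At a mean coverage of 10 to 12 times background the median log2 difference was -0.48 over 19 Hox regions and -0.32 over all. At 12 to 15 times it was -0.59 over 24 Hox regions and -0.48 over all, and at 15 to 20 times -0.51 over 19 Hox regions and -0.60 over all. Hox regions thus lay below all regions of like strength in the first 2 of these ranges and above them in the last. At 8 to 10 times, 13 Hox regions had a median of -0.27 and all regions -0.18, and at 20 times or more the 3 Hox regions had -0.73 and all regions -0.63.

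**Figure D2:**
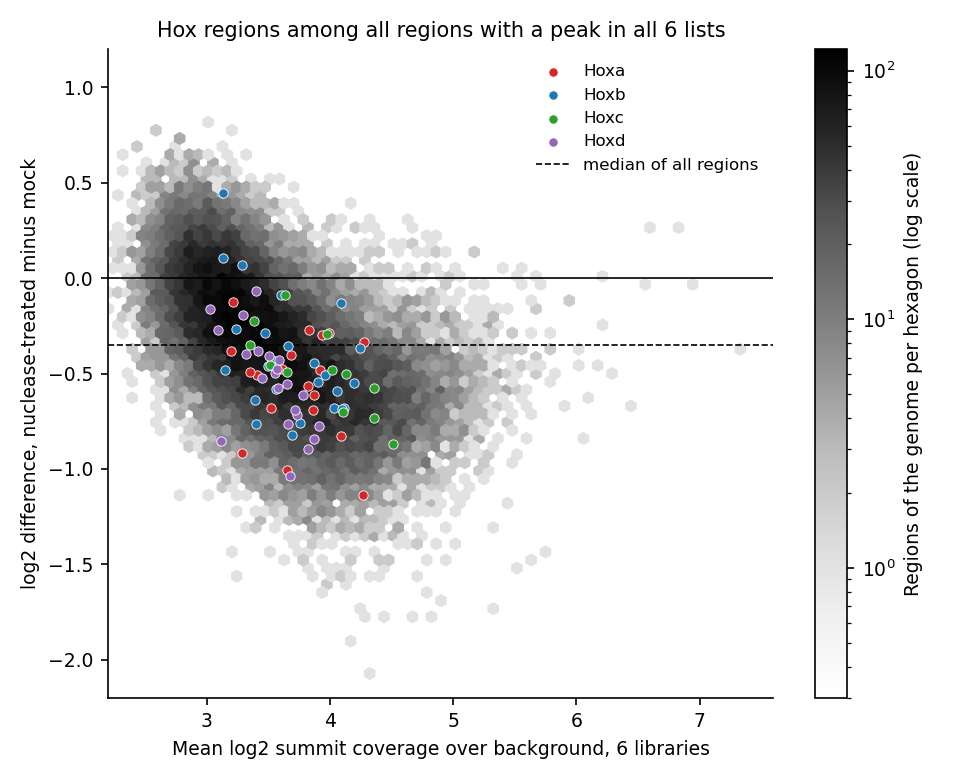
Log2 difference in summit coverage, nuclease-treated minus mock, against the mean log2 summit coverage over background in the 6 libraries. Grey hexagons count all 29613 regions on a log scale and coloured points are the 78 Hox regions by cluster. The dashed line marks the median of all regions (-0.35), and 75 Hox points lie under 0.

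The region with the lowest Hox difference lay in Hoxa, 7.7 to 9.7 kb into the window (chr6:52107698-52109708). Its summit coverage was 23.1, 35.8 and 28.2 times background in mock and 15.2, 12.4 and 11.6 times after the nucleases, so every treated library lay below every mock library. The log2 difference was -1.14 ± 0.17 (SE, limma adjusted p = 1.9e-05), and it also passed after median centring (-0.78, adjusted p = 0.00877). A Hoxa region at chr6:52153491-52154856 was the other strong one that fell, with 21.7, 23.7 and 22.5 times in mock against 12.8, 11.4 and 14.3 times (log2 difference -0.83, limma adjusted p = 0.00033). The Hoxa region with the widest single peak, 3257 bp in mock library 3, lay at chr6:52182040-52185432. It had 21.3, 23.7 and 20.2 times against 16.6, 17.1 and 17.9 times, groups that did not overlap, but its log2 difference of -0.34 did not pass (limma adjusted p = 0.0957). The smallest Hoxa difference was -0.13 at chr6:52161078-52162286 (adjusted p = 0.704).

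The strongest Hoxc regions were the strongest of the 4 clusters, and the 3 of them fell. At chr15:102751262-102752858 coverage was 28.0, 26.4 and 39.4 times background in mock and 15.7, 17.1 and 17.9 times after the nucleases (log2 difference -0.87 ± 0.16, limma adjusted p = 0.000163). At this region the local background averaged 1.2 times in mock and 2.65 times after the nucleases. At chr15:102767013-102767977 the values were 24.0, 25.1 and 25.8 against 17.1, 16.6 and 16.5 times, a log2 difference of -0.58 (limma adjusted p = 0.00394). At chr15:102784872-102787840 they were 27.1, 27.8 and 24.4 against 18.1, 16.1 and 13.8 times, a log2 difference of -0.73 (limma adjusted p = 0.000705). A broad Hoxc region at chr15:102840354-102842868 was 1 peak of 2285, 2499 and 2311 bp in the mock lists. In nuclease-treated libraries 1 and 2 it was split into 3 peaks, and in library 3 it was 1 peak of 1791 bp, while its summit difference did not pass (-0.30, limma adjusted p = 0.206). The Hoxc region at chr15:102796917-102798699 had the difference nearest 0 in that cluster, -0.09.

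In Hoxd all 3 of the strongest regions fell, as did the region with the lowest difference. The latter, at chr2:74541962-74544109, had 20.9, 14.8 and 19.7 times background in mock and 7.6, 10.9 and 8.49 times after the nucleases (log2 difference -1.04 ± 0.20, limma adjusted p = 0.000168). It too passed after median centring (-0.68, adjusted p = 0.0331). Its local background averaged 1.72 times in mock and 1.26 times after the nucleases, the reverse of the Hox median. At chr2:74519648-74521411 coverage was 20.0, 17.0 and 21.1 against 9.5, 11.9 and 9.83 times, a log2 difference of -0.90 (limma adjusted p = 0.000318). At chr2:74600174-74602033 it was 18.6, 21.5 and 18.8 against 10.9, 9.85 and 12.1 times, a log2 difference of -0.85. The region at chr2:74534751-74537298, with the widest Hoxd peak, was 1 peak in each mock list and 2 peaks in each nuclease-treated list, and fell by 0.78 on the log2 scale. At chr2:74525415-74526171 the groups overlapped and the difference was -0.07.

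Hoxb held the only 3 of the 78 regions with a positive difference. At chr11:96132148-96134386 coverage was 19.5, 22.0 and 23.0 times background in mock and 20.9, 13.0 and 17.0 times after the nucleases, groups that overlapped (log2 difference -0.37, limma adjusted p = 0.0974), and without nuclease-treated library 1 it passed (-0.53, limma adjusted p = 0.0337). The region at chr11:96124906-96125871 had the highest Hox difference, with 6.66, 6.72 and 9.39 times in mock and 9.03, 11.9 and 9.83 times after the nucleases. Its log2 difference of 0.44 ± 0.22 did not pass (limma adjusted p = 0.108). It passed after median centring (0.80, limma adjusted p = 0.0261) and without mock library 3 (0.61, limma adjusted p = 0.0428). Among the Hoxb regions that fell, the one at chr11:96146582-96148879 had 16.9, 17.5 and 18.3 against 9.03, 9.85 and 12.5 times (log2 difference -0.76, limma adjusted p = 0.00171), and its sequence under peaks went from 2266, 1395 and 1413 bp to 334, 640 and 943 bp. The lowest Hoxb difference was -0.82, at chr11:96161889-96162660. The regions at chr11:96112221-96113463 (-0.55, limma adjusted p = 0.0115) and chr11:96164966-96166651 (-0.68, limma adjusted p = 0.00228) fell with all 6 libraries, and kept their direction but not their call without some of them. The former did not pass without mock library 1 (-0.45, limma adjusted p = 0.0853) or without nuclease-treated library 3 (-0.46, limma adjusted p = 0.0659). The latter did not pass without mock library 2 (-0.54, limma adjusted p = 0.0826).

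**Figure D3:**
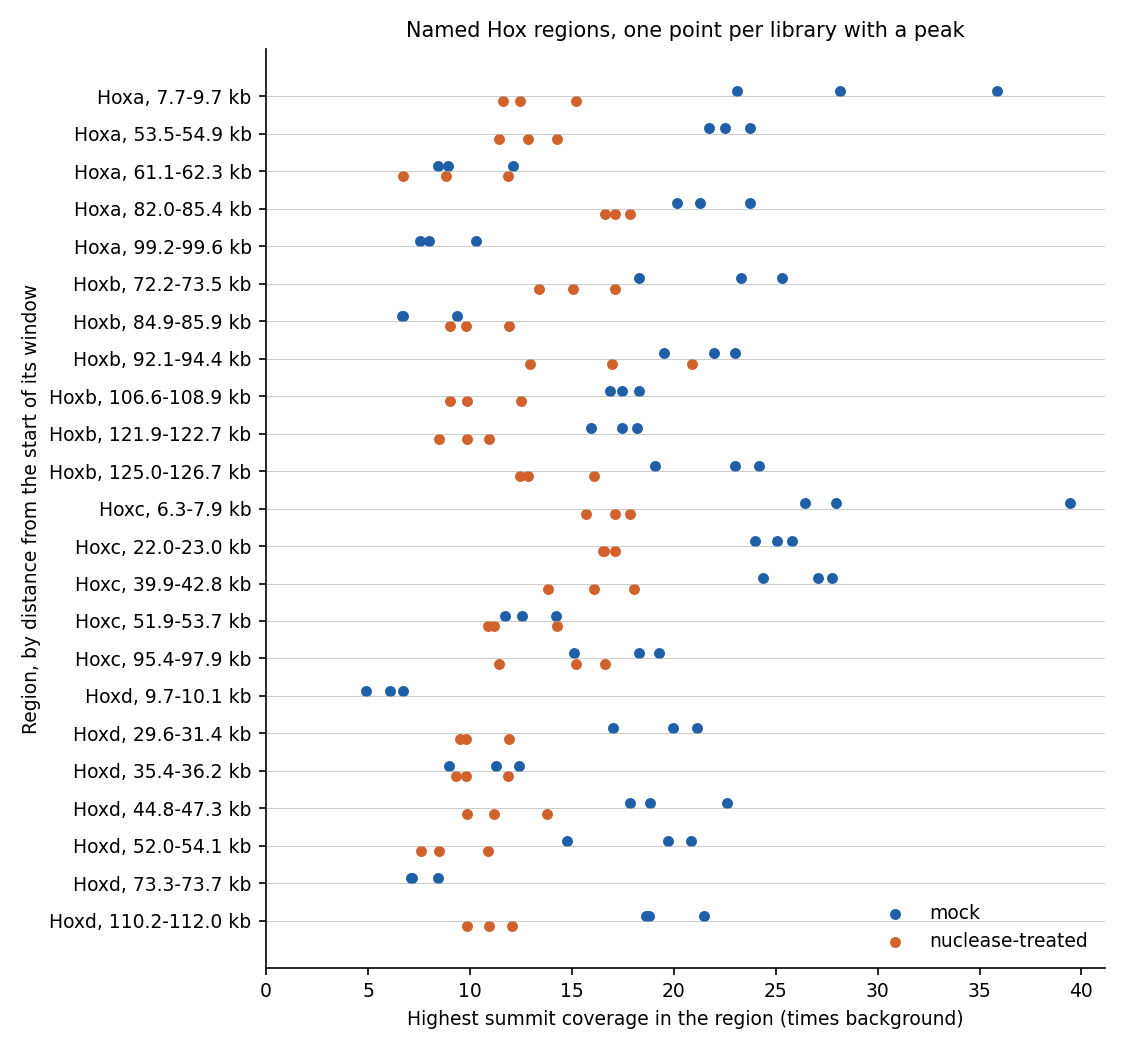
Highest summit coverage (times background) in each of the 23 named Hox regions, placed by distance from the start of the window, with 1 point per library that has a peak there. The 3 regions with mock points only are the mock-only ones, and in the Hoxb region 84.9 to 85.9 kb into its window the points of the groups interleave, with mock at 6.66, 6.72 and 9.39 and nuclease-treated at 9.03, 11.9 and 9.83.

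The 78 Hox regions with a peak in all 6 lists had less sequence under peaks. They held 86, 90 and 84 peaks in mock and 95, 90 and 87 after the nucleases, over 84464, 82524 and 82133 bp and over 61385, 59405 and 69364 bp. Regions broken into more than 1 peak numbered 6, 11 and 6 in mock and 16, 10 and 8 after the nucleases, and those groups overlapped. The 42 regions that fell were a median of 1235 bp wide with a median mock coverage of 18.1 times background, and the other 36 were 982 bp wide with 12.8 times. Both of these values come from the libraries that were tested and are given as a description.

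Tiles with less sequence under peaks after the nucleases lay in all 4 clusters. The windows were cut into 113 tiles of 5 kb, of which 93 held a peak in at least 1 list. At 35 tiles (37.6% of the 93) all nuclease-treated libraries had fewer covered bases than all mock libraries, where 15.0% of all such tiles of the genome did. A tile could be lower only if all 3 mock lists had a peak there. Among merged regions, 109 of 150 in Hox and 48273 of 137027 over the genome had a peak in all 3 mock lists. How far this sets the 2 shares apart was not tested. At 0 tiles all nuclease-treated libraries had more, where 1.37% of the genome's tiles did. The 0 became 1 without mock library 3, 3 without nuclease-treated library 2 and 2 with 2 kb tiles. With 2 kb tiles, 50 of 283 Hox tiles were lower, tiles without a peak included. Over the genome, 20304 of the 151206 tiles of 2 kb with a peak were lower and 2028 higher. Lower tiles of 5 kb numbered 12 of 20 in Hoxa, 9 of 29 in Hoxb, 7 of 23 in Hoxc and 7 of 21 in Hoxd. In Hoxa, the tile 40 to 45 kb into the window went from 1972, 1901 and 1513 bp in mock to 764, 334 and 554 bp. In Hoxb, the tile 105 to 110 kb into the window went from 2957, 2209 and 2218 bp to 334, 1084 and 1520 bp. In Hoxc, the tile 110 to 115 kb into the window had 863, 966 and 986 bp in mock and 387, 0 and 0 bp after the nucleases. A stretch of Hoxb from 30 to 55 kb into the window had no peak in any of the 6 lists.

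**Figure D4:**
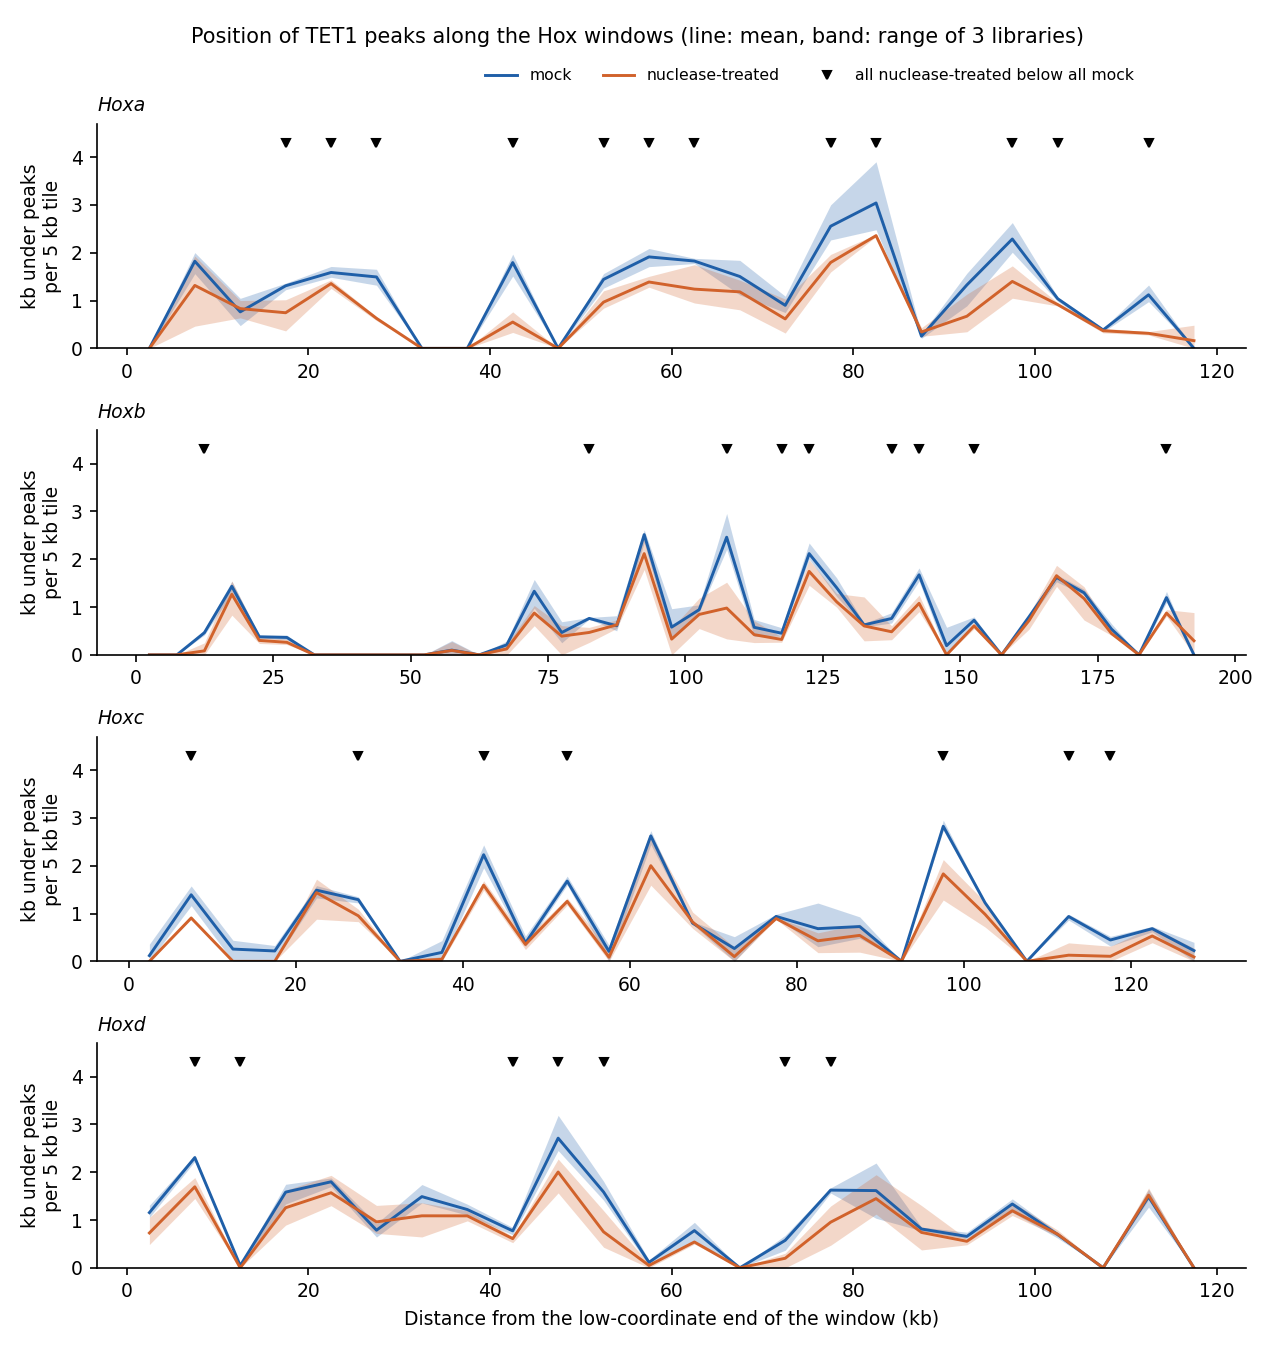
Sequence under peaks (kb) in each 5 kb tile along the 4 Hox windows, against the distance from the low-coordinate end (kb). Lines are group means and bands the range of 3 libraries, and triangles mark the 35 tiles where the highest nuclease-treated value is under the lowest mock value.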

How the data were processed

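Peaks of HA-TET1 were listed per library (3 mock, 3 nuclease-treated); the 2 pooled input libraries were not analysed on their own. Per the submitters' processing notes, reads were handled with Bowtie2 2.2.8, SAMtools 1.3.1, Picard, deepTools 2.4.3 and bedtools 2.25.0 and peaks called with MACS2 2.1.1, on mm9. Which settings each used is not given in these sources. The deposited lists hold, per peak and by the authors' caller, a score (an integer 10 times the -log10 q-value), a fold enrichment ratio, a -log10 p-value and a -log10 q-value; the summit offset is another deposited value.

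Whole-number summit coverage and local background were solved from fold and p, to within 0.001 in -log10 p, for all peaks of 5 lists and all but 1 of the sixth; the lists held 62161 to 83601 peaks. Coverage was divided by each library's background of 1.929 to 2.253 fragments. Peaks of the 6 lists were merged into regions where they overlapped or touched. limma 3.58.1 (R 4.3.3) was fitted with a mean trend to log2 coverage of regions with a peak in all 6 lists. It had no replicate block. Exact permutation tests went through all label orders in Python 3.11.15 with NumPy 2.4.6. SciPy 1.17.1 gave the Poisson tails and the counting intervals. The limma code was tested on simulated data. Named were, per cluster, the 3 regions of highest mean coverage, those of lowest and highest difference and the one with the widest peak, plus every region in all lists of 1 group and none of the other. Alternatives were a stricter threshold, equal list lengths, a local background limit, other tiles, windows, overlaps and centring, and leaving out each library. The members and lists were chosen with earlier results of these data known. Intervals cover counting error only.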

Additional observations from a re-analysis of the deposited data

How the results depend on the processing

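Of the values that summarise a comparison, 177 of those recomputed under other settings stayed the same, 6 moved and 10 turned sign. For differences between the groups, the same means only that the sign was kept. Counts, shares of tiles and the median log2 difference had to stay within a limit set for them. Sizes still moved among the 177. The Hox peak number difference of -16 was -35.3 with a stricter peak threshold and -40.3 with the local background limit of 2 times. The difference in peaks of 20 times or more (-15.3) was -37 at 15 times and -0.667 at 30 times (exact permutation p = 0.4). The share of list bases (-0.0154) was -0.0302 with lists of equal length and -0.0319 with the local background limit. Under that limit Hoxa over Hoxd was -0.41, Hoxb over Hoxd -0.43, Hoxc over Hoxd -0.50 and Hoxb over Hoxc 0.07, and with the stricter threshold Hoxa over Hoxb was -0.29, Hoxa over Hoxc -0.14 and Hoxc over Hoxd -0.036. The Hox to flank difference turned to 0.0576 with a stricter peak threshold (-log10 q of 5 or more), 0.0557 with the local background limit of 2 times and 0.0669 with windows shortened by 10 kb, and ran from -0.10 to 0.00774 without 1 library. Hoxa over Hoxb turned to 0.0211 and Hoxa over Hoxc to 0.0914 under the local background limit, and the latter ran from -0.093 to 0.0041 without 1 library. Hoxb over Hoxd turned to 0.114 with the stricter threshold and 0.0661 with lists of equal length. By median coverage, Hoxa over Hoxb turned to 0.0148 with lists of equal length and ran from -0.11 to 0.033 without 1 library. Hox regions lower numbered 17 under the local background limit, where fewer regions remained, and 2 after median centring, which also gave 1 higher and a median log2 difference of -0.14. They ran from 31 to 41 of 80 to 89 without 1 library, where 27.3% to 32.7% of all regions were lower. Hox regions higher ran from 0 to 1, where 0.13% to 0.46% of all regions were higher. Tiles that were lower made up 17.7% of the 283 Hox tiles of 2 kb and 31.0% of the 113 tiles of 5 kb. Both shares count tiles without a peak. Over the genome, 20304 of the 151206 tiles of 2 kb with a peak were lower. After median centring, 5 named regions turned sign, to 0.23 (chr6:52161078-52162286), 0.0179 (chr6:52182040-52185432), 0.26 (chr15:102796917-102798699), 0.0581 (chr15:102840354-102842868) and 0.29 (chr2:74525415-74526171). Without 1 library the first of these ran from -0.33 to 0.078 and the last from -0.20 to 0.034. The cause of these changes was not tested.

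No pairing by replicate number was seen in these values. Same-numbered mock and nuclease-treated libraries deviated from their group means with correlations of 0.0134, -0.00489 and 0.0379, and not every library correlated best with its own number. Such correlations cannot show whether same-numbered libraries were prepared together. With a replicate block in the limma fit, 45 of 78 Hox regions were lower (57.7%), where 36.3% of all regions were. In that fit 0 Hox regions were higher, where 0.219% of all regions were, and no named region changed its call. The 8 sign orders of 3 pairs allow no p under 0.25.

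Precision is limited by 3 libraries a group and by summits of 20 to 29 fragments. Coverage was recovered from fold and p at called peaks only, so a region without a peak has no value, and lists made under another local background are compared here. Fragments, local background and the peak call share one source, and enzyme, RNA:DNA hybrids and TET1 level were not measured separately.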
